A study of Pan paniscus with 11 samples.

Results

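The enzymes of glycolysis with the symbols HK1, GPI, PFKP, ALDOA, TPI1, GAPDH, PGK1, PGAM1, ENO1 and LDHA, were followed in cultured bonobo (Pan paniscus) fibroblasts. Members were the probe sets, other than array controls, whose single gene symbol in the probe annotation was one of these 10. The rule found 11 probe sets of 9 genes, among 12558 probe sets and 8226 named genes, and all 11 were tested. No probe set carried the symbol HK1, so hexokinase 1 was not analysed here. GAPDH and PGK1 had 2 probe sets each. For each of them the one with the higher mean log2 stood for the gene and the other is called the second probe set.

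Total RNA of 11 cultures was hybridised to an Affymetrix human array, 1 array per culture. The 10 standard lines, 5 female and 5 male, came from 10 bonobos described as normal, with growth and harvest called standard in the labels. The donors of female lines 1 to 5 were 9, 2, 4, 20 and 20 years old. Those of the male lines were, in the same order of numbers, 4, 2, 12, 17 and 19 years old. The remaining array holds a repeat culture of male line 1 collected when 50% confluent. Passage numbers and the confluence of the other cultures are not stated. Each line is 1 culture of 1 animal, so spread between animals and spread between arrays cannot be told apart.

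Glycolysis breaks glucose down to pyruvate in the cytosol. An upper part spends ATP to make triose phosphates (hexokinase, GPI, phosphofructokinase, aldolase and TPI1), and a lower part from GAPDH onward gives back ATP and NADH. LDHA then turns pyruvate into lactate and restores NAD+, a route that cultured fibroblasts use heavily. Many of these genes are known targets of the hypoxia-inducible factors and of MYC, and GAPDH is widely used as a reference gene. Human probes can read the bonobo transcript less well where the sequences differ, and most of these genes have processed pseudogenes with near-identical sequence, so a probe set can also read related copies. Levels of the members were therefore compared between cultures for 1 probe set at a time, never between genes. Sums over marker and mitosis genes, and groups of genes chosen by brightness, did mix probe sets, and the brightest weigh most in a sum.

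The arrays were similar in scale, with 2% trimmed means of 405 to 418 and 52.1% to 60.9% of probe sets above the floor of 100, the level to which low values were raised. The 15 fibroblast markers with a probe set exceeded the floor in all 11 cultures. Markers of other cell types were mostly at or near the floor. Above it in all 11 were 0 of 5 endothelial markers (summed 480 to 549 in the standard lines), 0 of 3 melanocyte markers (300 to 485), 1 of 6 keratinocyte or epithelial markers (805 to 1420) and 1 of 4 blood markers (484 to 783). The 2 exceptions were KRT10, at 287 to 703, and CD3E, at 118 to 290. The labels name no batch. Female line 1 had the smallest share of probe sets above the floor. The ribosomal RNA controls gave signals of 1508 to 2611 on the 50% confluence array, against 146 to 313 for male line 4 and at most 171 elsewhere. The ratio of 3' to 5' signal was highest in male line 4, at 1.67 for the GAPDH controls and 2.27 for those of ACTB, the cytoplasmic actin gene. A high ratio is a usual sign of shortened RNA.

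In the upper part of the pathway GPI and TPI1 varied little between lines as deposited, and ALDOA was low in 1 line. PFKP varied the most of all 9 genes. GPI, which converts glucose 6-phosphate to fructose 6-phosphate, read 4588, 2887, 3833, 4076 and 4515 in female lines 1 to 5 and 3905, 4184, 4702, 3645 and 4183 in male lines 1 to 5. The highest line was 1.63-fold above the lowest, and female line 2 stood at the low end. PFKP, the platelet-type phosphofructokinase subunit of the committing step, read 113, 250, 1197, 395 and 305 in the female lines. It read 291, 189, 526, 691 and 258 in the male lines. The highest line, female line 3, was 10.6-fold above the lowest, female line 1, which lay just over the floor, and the sexes overlapped throughout.

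ALDOA, the aldolase that splits fructose 1,6-bisphosphate, read 7083, 5954, 4839, 5894 and 7475 in female lines 1 to 5. In male lines 1 to 5 it read 6910, 6064, 6785, 3569 and 6756. Male line 4 was the low one, beside the RNA quality values given above for its array, and their part in this value was not tested. TPI1, which interconverts the triose phosphates, read 1502, 1686, 2254, 1647 and 1893 in the female lines and 1745, 2250, 2642, 2648 and 2108 in the male lines. Its 3 highest values were those of male lines 3 and 4 and female line 3. The range was 1.76-fold, and 2.02-fold under quantile normalization.

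GAPDH, the enzyme that oxidises glyceraldehyde 3-phosphate and makes NADH, differed more between lines, as deposited, than the enzymes that follow it. It read 16404, 23411, 37863, 17924 and 36166 in female lines 1 to 5, and 32326, 21313, 19229, 36609 and 44951 in male lines 1 to 5. Female lines 3 and 5 and male lines 1, 4 and 5 lay at 32326 or more, the other 5 lines at 23411 or less, and the range was 2.74-fold. The second GAPDH probe set was dim. It lay at the floor of 100 in 3 lines (female 2 and 4, male 4) and reached 422 in male line 1. Over the 10 lines its correlation with the first was r = 0.42, given as a description of probe sets of 1 gene.

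The genes after GAPDH were steadier in the deposited values. PGK1, an X-linked gene whose product makes the first ATP of this part, read 5565, 8530, 7139, 6737 and 7233 in female lines 1 to 5. The male lines read 7895, 7626, 8028, 6876 and 7517. Its range of 1.53-fold was the smallest of the 9 genes as deposited (1.82-fold under quantile normalization, where PGAM1 had 1.68-fold), and the second PGK1 probe set, from 210 to 416, also had female line 1 lowest and female line 2 highest. PGAM1, the phosphoglycerate mutase, read 14337, 22230, 20372, 20365 and 21750 in the female lines and 25113, 19346, 18580, 20593 and 27079 in the male lines. ENO1, the enolase, read 5865, 9221, 10202, 8335 and 8426 in the female lines and 9832, 9463, 7920, 7710 and 8488 in the male lines. Female line 1 was the lowest line for all 3 genes. LDHA, the lactate dehydrogenase A subunit, read 6029, 8348, 8831, 8331 and 11714 in the female lines. In the male lines it read 10115, 12859, 10292, 7429 and 12639, a range of 2.13-fold over the 10 lines.

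**Figure D1:**
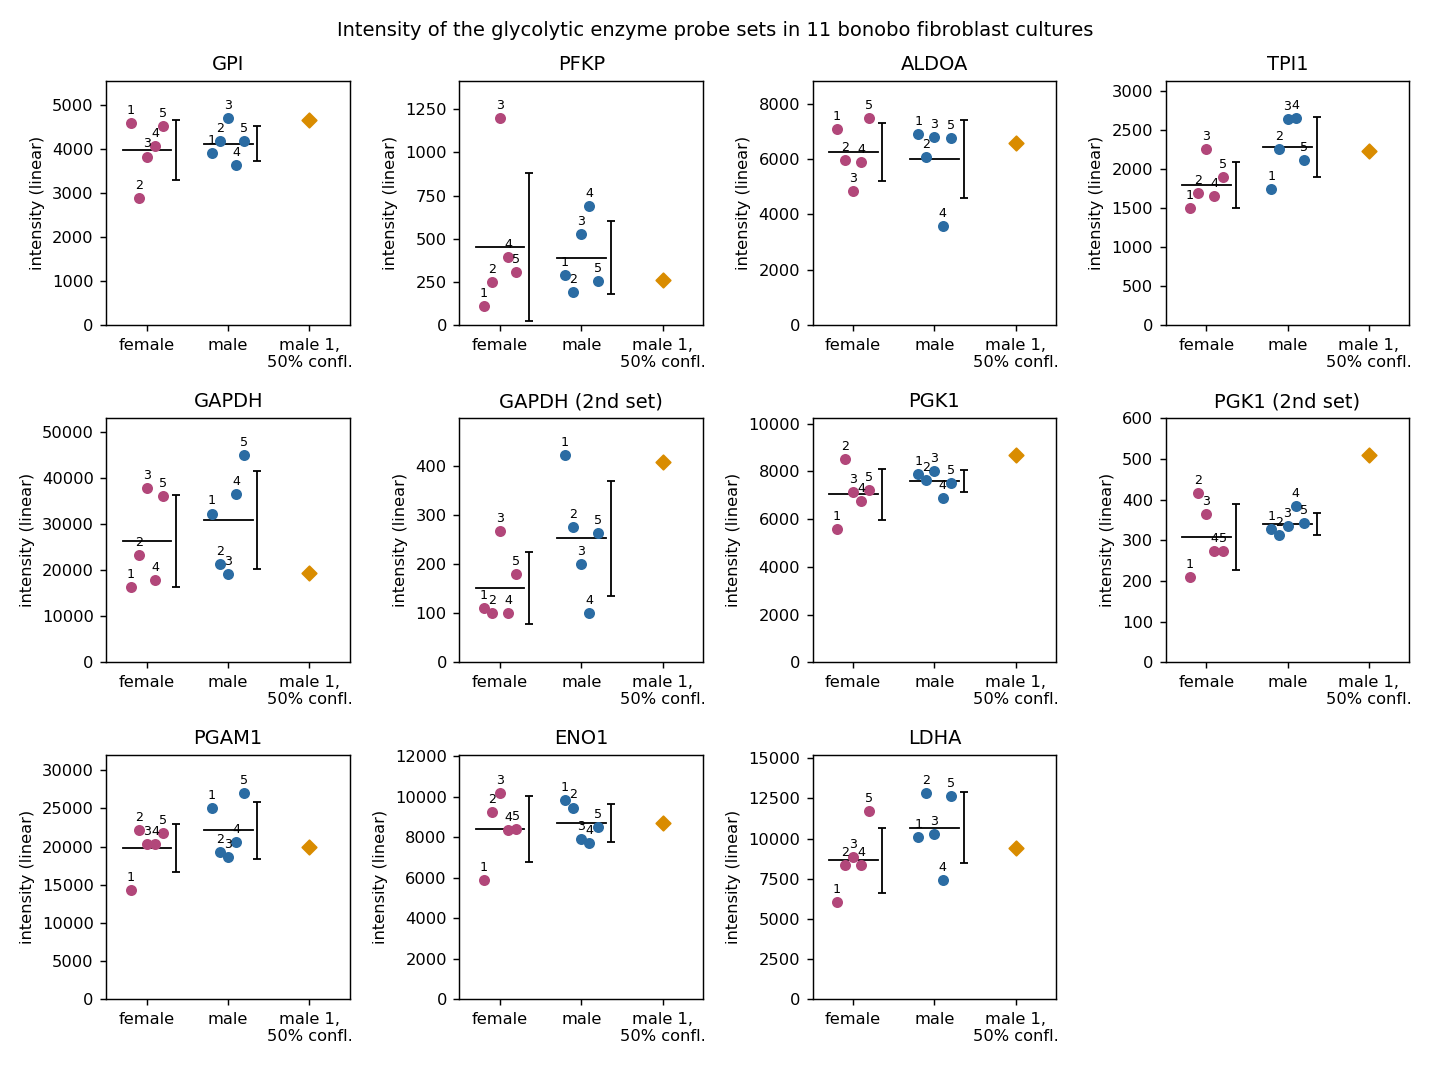
Intensity (linear axis from 0) of each of the 11 probe sets in the 5 female and 5 male lines, numbered by line, and in the 50% confluence culture of male line 1 (diamond). Black lines are means and bars SD of 5 lines. PFKP stands out by female line 3 (1197), ALDOA by male line 4 (3569), and female line 1 is the lowest point in 7 of the 9 genes.

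Spread between lines was expressed as the SD of log2 intensity over the 10 standard lines. The median SD of the 9 genes was 0.29, beside 0.43 for 5360 tested genes and 0.35 for the 1081 genes with a mean above 1000, and 7 of the 9 lay below the median of all tested genes. PGK1 (0.17), GPI (0.20) and ENO1 (0.23) were the steadiest as deposited. For PGK1 only 1.51% of tested genes had a smaller SD, for GPI 3.84% and for ENO1 6.06%. PGAM1 (0.25), TPI1 (0.29), ALDOA (0.32) and LDHA (0.35) followed. GAPDH had an SD of 0.53, above 71.2% of tested genes, and PFKP one of 0.97, above 97.5%. The order depends on scaling. Under quantile normalization, which gives every array the same distribution, GPI (0.21), PGAM1 (0.21), PGK1 (0.23) and GAPDH (0.25) had the smallest SDs. ENO1 (0.27), ALDOA (0.28), TPI1 (0.33) and LDHA (0.34) followed. PFKP stayed highest at 0.93. These SDs describe the lines and were not tested against each other.

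**Figure D2:**
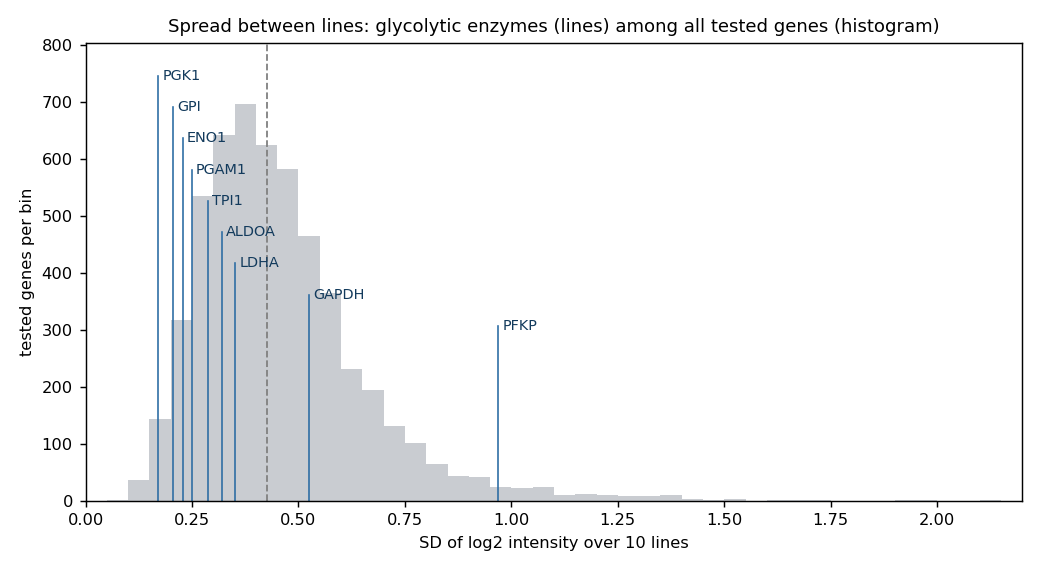
Histogram of the SD of log2 intensity over the 10 standard lines for the 5360 tested genes, with 9 vertical lines at the values of the glycolytic enzymes (line heights serve the labels alone) and a dashed line at the median of all genes, 0.43. On the histogram, 7 enzymes lie to the left of the dashed line, GAPDH (0.53) and PFKP (0.97) to the right.

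The GAPDH values followed those of other bright transcripts on the same arrays. The array carries control probe sets for the 3', middle and 5' parts of GAPDH and ACTB, which the rule had left out. Over the 10 lines GAPDH was correlated with the ACTB 3' control (Pearson r = 0.967, permutation p = 0.00012; Spearman rho = 0.903, permutation p = 0.00083). Its correlation with the 3' control of GAPDH itself (r = 0.957, rho = 0.915) is given as a description of probe sets of 1 gene. Without female line 1 and male line 5, the lines farthest from the median, r was 0.944 and 0.928. In contrast, the 5' control of GAPDH ran from 17642 to 29501, a range of 1.67-fold, against 6838 to 29750, 4.35-fold, for the middle control. The correlation of the 5' control with the GAPDH member is likewise given as a description. It had r = 0.41 (permutation p = 0.233) and rho = 0.35 (permutation p = 0.333).

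These relations belong to a family of 8, comprising 6 control probe sets and 2 ratios of 3' to 5' signal, chosen after the values were seen. The ratios are not read as results, since their numerators are the 3' controls themselves. The GAPDH controls read the gene of the member itself, so their p-values are not read as results either. Adjusted by Benjamini-Hochberg over the 8, the p of r was 4.27e-04 for the ACTB 3' control, for the GAPDH 3' control and for the GAPDH middle control, and 8.6e-04 for the ACTB middle control. It was 0.0933 for the ACTB 5' control and 0.233 for the GAPDH 5' control. The GAPDH 3' to 5' ratio was 0.69 in male line 2, the lowest, and 1.67 in male line 4, the highest.

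Of the 50 brightest tested genes other than the members, 30 (60%) had r above 0.5 with GAPDH over the lines, beside 8.17% of all 5351. Among genes singled out after their values were seen, EEF1A1, a translation elongation factor gene, had r = 0.98 and VIM, the intermediate filament gene of fibroblasts, r = 0.97. Under quantile normalization the SD of GAPDH fell from 0.53 to 0.25 and its range from 2.74-fold to 1.75-fold. The median r of the 50 brightest genes with GAPDH was then 0.13, against 0.57 as deposited. Only 0 to 35 probe sets lay above GAPDH on the standard arrays, and this scaling gives equal ranks equal values on every array. Both falls thus follow largely from the scaling itself and cannot tell the sources of the line differences apart. The SD of the other 8 genes moved by less than 1.5 times. The line differences of GAPDH as deposited may lie in its RNA level, in RNA quality or in how the brightest probe sets were scaled. Which of these it is was not tested.

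**Figure D3:**
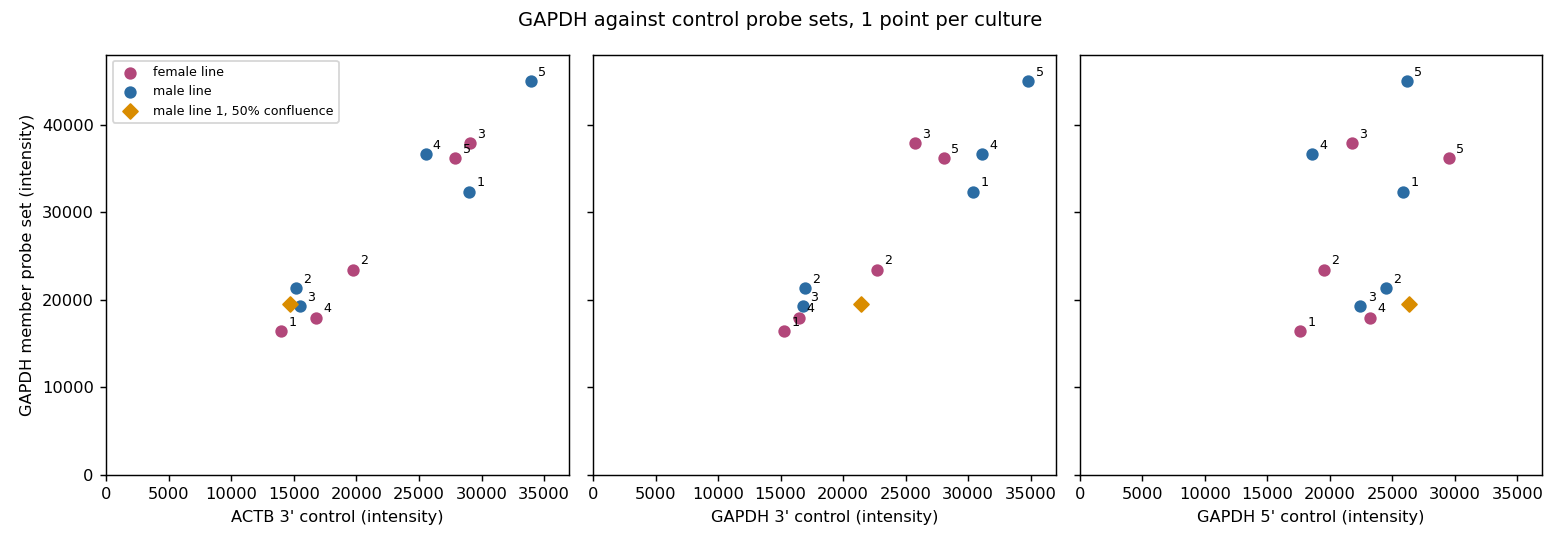
GAPDH intensity (vertical, linear) against the ACTB 3', GAPDH 3' and GAPDH 5' control intensities (horizontal, linear), 1 point per culture, lines numbered within each sex and the 50% confluence culture as a diamond. Points rise together for both 3' controls (r = 0.967 and 0.957 over the 10 lines) and scatter for the 5' control (r = 0.41).

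Several of the enzymes shared their lowest line. Female line 1 was the lowest of the 10 lines for 7 of the 9 genes, the exceptions being GPI and ALDOA, for which it was rank 2 from the top. The mean centred log2 value of the 9 genes was -0.49 in female line 1, -0.35 with PFKP left out, and from -0.12 to 0.25 in the other 9 lines. Over 36 pairs of genes r ran from -0.64 for PFKP and ALDOA to 0.75 for PGK1 and ENO1, with a median of 0.25 and 27 pairs above 0. All 9 pairs below 0 included GPI or ALDOA. Their r with the mean of the other 8 genes was -0.14 and -0.36, beside 0.27 for PFKP and 0.52 to 0.65 for the 6 others.

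Neighbouring steps of the pathway were tested as 8 pairs. As deposited, the highest values were those of PGAM1 and ENO1, PGK1 and PGAM1, and ENO1 and LDHA. For PGAM1 and ENO1 r was 0.682 (permutation p = 0.0422; rho = 0.467, permutation p = 0.179), and for PGK1 and PGAM1 it was 0.663 (permutation p = 0.0481; rho = 0.37, permutation p = 0.297). For ENO1 and LDHA it was 0.591 (permutation p = 0.067; rho = 0.503, permutation p = 0.144). After Benjamini-Hochberg adjustment over the 8 pairs none passed, the lowest adjusted p of r being 0.134. Without the 2 lines farthest from the median of the first gene, female line 1 among them each time, r was 0.413, 0.149 and 0.34. Without female line 1 alone it was 0.19, 0.17 and 0.15, so these values rested on that line. Leaving out only the other line (male line 5, female line 2 and female line 3, in the same order) gave 0.808, 0.682 and 0.695. GAPDH and PGK1 had r = 0.268 (permutation p = 0.484; rho = 0.127, permutation p = 0.735), and -0.257 without female line 1 and male line 5. PFKP and ALDOA had r = -0.637 (permutation p = 0.0521; rho = -0.503, permutation p = 0.144; adjusted p of r = 0.134). TPI1 and GAPDH, which lie on the same chromosome with 18 protein-coding genes between them in the bonobo gene table, had r = 0.362 (permutation p = 0.295; rho = 0.527, permutation p = 0.123). That value was 0.019 without female line 1 and male line 4, 0.634 without male line 3, and 0.677 under quantile normalization (permutation p = 0.0291, adjusted p = 0.0965; rho = 0.62, permutation p = 0.062), so its size is not settled.

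Pairs of isozymes of the same step, 5 in all and chosen after the values were seen, gave no adjusted p of r below 0.385, so none passed. PFKL, the liver-type phosphofructokinase subunit, had its lowest intensity, 436, in female line 3, where PFKP was highest. In female line 1, where PFKP was lowest, PFKL read 1095 and the muscle-type subunit PFKM 1065, its highest. Over the 10 lines r of PFKP was -0.564 with PFKL (permutation p = 0.0913; rho = -0.347, permutation p = 0.321) and -0.41 with PFKM (permutation p = 0.241; rho = -0.176, permutation p = 0.633). Without female lines 1 and 3 the values were 0.029 and 0.161. Leaving out female line 3 alone gave -0.17 and -0.29, and leaving out female line 1 alone gave -0.52 and -0.11. The value for PFKL thus rested mainly on female line 3, and that for PFKM mainly on female line 1. LDHA and LDHB, the subunits of lactate dehydrogenase, had r = 0.408 (permutation p = 0.246; rho = 0.467, permutation p = 0.179; 0.431 without female line 1 and male line 2). It was 0.073 without male line 2 and 0.621 without female line 1, so single lines decide its size. LDHB read 6208 to 8379.

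Genes whose line pattern was most like the mean of the 9 enzymes were sought among 5351 other tested genes, with Pearson's r over the 10 lines as the measure. The 10 highest were CCNF (0.96), MCM3 (0.93), KIFBP (0.92), KIF2C (0.91), CEP43 (0.90), POLA1 (0.87), ANP32E, CCNA2, COPS8 and EXOSC2 (0.85 to 0.86). CCNF and CCNA2 encode cyclins, MCM3 and POLA1 proteins of DNA replication, and KIF2C a kinesin of mitosis. All 10 had their lowest value in female line 1. The 5 lowest were TBC1D22A (-0.88), CDIPT (-0.86), ADARB1 (-0.86), STOM and RBMXL2 (both -0.84). Without female line 1, an alternative chosen after seeing the data, r was 0.37 to 0.88 for the first 10, and 1 of them remained among the 10 most like genes. With PFKP left out of the mean 2 of the 10 remained, and with standardised values 4, so the ranking rests on female line 1 and on PFKP.

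Of the standard lines, female line 1 also had the lowest summed intensity of 14 mitosis genes, 2348. Female lines 2, 4 and 5 had 4101, 3870 and 3533, and the male lines 4778 to 15927. Female line 3, where PFKP was highest, had 15540. The highest sum, 15927, was that of male line 5, where PFKP read 258. The mean log2 of these 14 mitosis genes was set against each enzyme over the 10 lines as deposited, after the values were seen. TPI1 had r = 0.837 (permutation p = 0.00451, Benjamini-Hochberg adjusted p = 0.0406), and 0.82 without female lines 1 and 3. Its rho of 0.782 (permutation p = 0.0109, adjusted p = 0.0983) did not pass. For the other enzymes no adjusted p of r was below 0.152, that of PFKP. All 14 mitosis genes had a higher estimate in males than in females, with a median of 0.95 log2. By limma 0 of the 14 passed for sex, beside 0.0273% of all tested probe sets. The correlations were not adjusted for sex. The part of mitosis in the enzyme values was not tested.

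No enzyme passed the test for a difference between the sexes. Sex and age were fitted together with limma over all 7333 tested probe sets. Of the 11 member probe sets 0 passed an adjusted p of 0.05, where 0.0273% of all tested probe sets did, and 0 had an unadjusted p under 0.05, where 2.33% of all did. The sexes overlapped for all 11, and 0.286% of tested probe sets did not overlap. The estimate (male minus female) was positive for 8 of the 9 genes, with a median of 0.12 log2 beside 0.0031 for all tested genes. Without female line 1, 6 of 9 were positive with a median of 0.05. Without female line 2, 6 were positive with a median of 0.19, and the median was 0.19 without female line 3 and 0.20 without male line 2.

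TPI1 had an intensity of 1796 ± 292 (SD, n = 5) in females and 2279 ± 382 in males, an estimate of 0.34 log2 ± 0.19 (SE) with a 95% interval of -0.08 to 0.76 (limma, adjusted p = 0.9999). LDHA had 8651 ± 2030 in females and 10667 ± 2215 in males, an estimate of 0.31 (interval -0.18 to 0.80). PGK1, for which females carry 2 X chromosomes, had 7041 ± 1065 in females and 7588 ± 448 in males, an estimate of 0.12 (-0.27 to 0.50). For GAPDH the means were 26354 ± 10093 and 30886 ± 10726, an estimate of 0.24 (-0.43 to 0.92), and the second GAPDH probe set had 0.70 (-0.11 to 1.51), the member value of lowest p (0.0848 unadjusted, limma). The estimate of ALDOA was -0.08 (-0.56 to 0.41), and those of GPI (0.07), ENO1 (0.06) and PFKP (0.07) were close to it in size. The interval of PFKP, -1.07 to 1.21, still allows a change of over 2-fold in either direction, which was not detectable with this number of arrays. That of PFKP turned to -0.08 with a floor of 200.

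No enzyme passed for donor age either. With limma 0 of 11 member probe sets passed (0% of all tested) and 0 had an unadjusted p under 0.05 (3.42% of all). Slopes are given as log2 change over 10 years. The slope was positive for 6 of the 9 genes and negative for 3, with a median of 0.04 beside -0.0013 for all tested genes, and without male line 5 the count was 4 and the median -0.01. The slopes of largest size as deposited were those of PFKP (0.15, interval -0.64 to 0.93), GAPDH (0.15, -0.32 to 0.61), ENO1 (-0.11, -0.40 to 0.18) and GPI (0.11, -0.16 to 0.38). Those of PGK1 (-0.07), PGAM1 (0.05), TPI1 (0.04), LDHA (0.03) and ALDOA (-0.0026) were smaller. The 2 probe sets of GAPDH had slopes of opposite sign, the second at -0.32 (-0.88 to 0.23). Scaling moves several of these slopes. That of GAPDH was 0.06 under quantile normalization, smaller in size than that of PGK1 (-0.09), and LDHA and ALDOA turned sign, at -0.02 for LDHA under quantile normalization and 0.0090 for ALDOA with median centring. A difference in slope between the sexes passed for no member probe set (0 of 11, where 0.0136% of all tested passed, and 0 at an unadjusted p under 0.05, where 4.84% did).

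**Figure D4:**
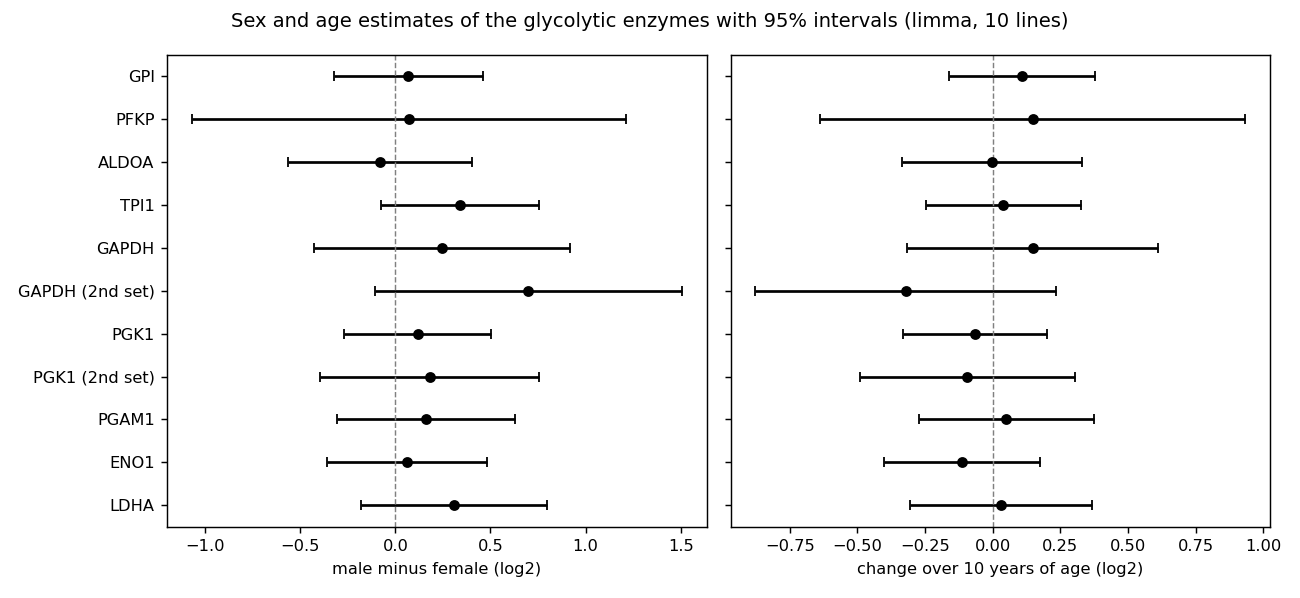
Estimates (points) and 95% intervals (bars) of the 11 probe sets from limma over 10 lines: male minus female at the left and change over 10 years of donor age at the right, both in log2, with a dashed line at 0. All intervals include 0, and that of PFKP is the widest for the first probe set of a gene (-1.07 to 1.21 for sex).

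Genes around the pathway were taken from 10 lists of 126 genes, of which 99 were on the array and 78 were tested. By limma 0 of the 78 passed for sex, for age or for the difference in age slope. Of all tested probe sets 0.0273%, 0% and 0.0136% passed, in the same order. Of the 78, 4 and 5 had an unadjusted p under 0.05 for sex and age, where 2.33% and 3.42% of all tested probe sets lay. The hexokinases HK2 and HK3 were above the floor in 2 and 4 of 11 cultures, at no more than 148 and 178, and neither was tested. PKM, the pyruvate kinase between ENO1 and LDHA, read 12629 in male line 4, its lowest, and 24011 in male line 5, its highest. The glucose transporter gene SLC2A3 read 351 to 915, and SLC2A1 100 to 311. Of 8 tested isozyme and closing-step genes 6 had a positive sex estimate, from -0.29 for ENO2, -0.25 for PFKM and 0.01 for LDHB to 0.15 for PFKL, 0.30 for PKLR and 0.34 for GAPDHS, the last 2 dim. All 4 tested pentose phosphate genes were positive (PGD 0.15, TKT 0.19, TALDO1 0.33, RPE 0.59), with RPE dim at 100 to 353 over the lines. The 3 tested glucose and lactate transport genes were all negative (SLC2A1 -0.48, BSG -0.19, SLC2A3 -0.06). Positive were 1 of 3 serine branch, 3 of 7 glycogen and hexose phosphate and 4 of 8 gluconeogenesis and glycerol phosphate genes. So were 8 of 13 citrate cycle genes, 8 of 18 hypoxia-inducible factor targets and 4 of 7 factors. Among 7 regulators of flux the largest sex estimates were those of the pyruvate dehydrogenase kinase gene PDK2 (0.97), PFKFB4 (0.86) and PDHA1 (0.51). The last 2 were dim, PFKFB4 at 100 to 114 in the female lines with 507 in male line 2, and PDHA1 at 108 to 301. None of these sex estimates passed.

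Harvest state was compared in male line 1, with 1 culture per state and so no replicate check. No enzyme moved by over 2-fold (0 of 11 probe sets, where 9.63% of the 6147 probe sets above the floor in both cultures did). The median difference of the 9 genes, 50% confluence minus standard, was -0.10 log2 beside 0 for 4564 genes, with 3 higher and 6 lower. Under quantile normalization it was -0.20 beside -0.02 for all genes, with 2 higher and 7 lower. Their median absolute difference was 0.18 beside 0.36 for all genes. GAPDH had the largest difference, 32326 in the standard culture and 19505 at 50% confluence, 1.66-fold lower (-0.73). Of 45 pairs of different standard lines 20 lay farther apart for this gene. The ACTB 3' control also fell, by 0.98 log2, and the GAPDH 3' control by 0.50, while the GAPDH 5' control was close to level (25864 and 26294, 0.02 log2). Under quantile normalization the GAPDH difference was -0.48.

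The other differences were smaller. PGAM1 read 25113 and 20010 (-0.33), ENO1 9832 and 8700 (-0.18), PFKP 291 and 260 (-0.16), LDHA 10115 and 9410 (-0.10) and ALDOA 6910 and 6574 (-0.07), the standard culture first. TPI1 was higher at 50% confluence, 1745 and 2227 (0.35), as was GPI, 3905 and 4665 (0.26). PGK1 read 7895 and 8667 (0.13), a value just above the range of the 10 lines, and its second probe set 327 and 509 (0.64), outside that range as well. Under quantile normalization the PGK1 difference turned to -0.10, so its direction is not settled. That scaling also moved ENO1 to -0.39, LDHA to -0.27, ALDOA to -0.24, PGAM1 to -0.18 and GPI to 0.13, each by over 1.5 times, with the same sign. For the second PGK1 probe set 6 of 45 line pairs lay farther apart, for TPI1 20, and for PFKP 43. The 50% confluence array is the one with the strong ribosomal RNA control signal, whose part in these differences was not tested.

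**Figure D5:**
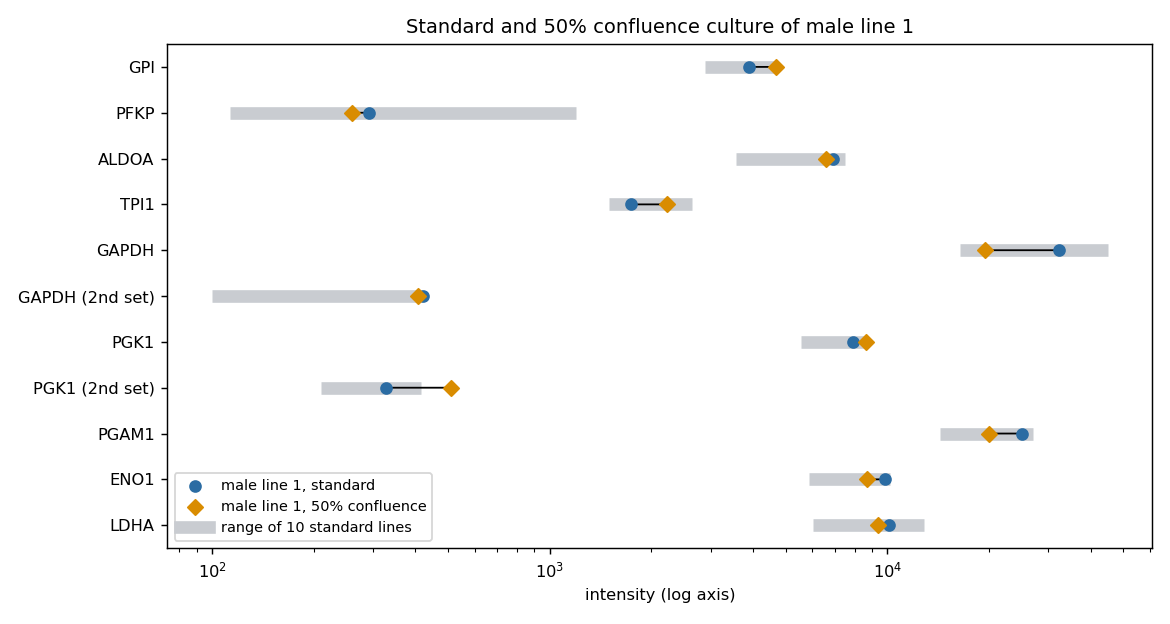
Intensity (log axis) of each probe set in the standard (circle) and the 50% confluence (diamond) culture of male line 1, with the range of the 10 standard lines as a grey bar. GAPDH shows the longest distance among the first probe sets (32326 to 19505), and both PGK1 diamonds lie beyond the grey bar.

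Glycogen and hexose phosphate genes, which branch off at the level of glucose 6-phosphate, had the median farthest from 0 among the 10 pathway lists in the same comparison, and are described for that reason, with no test. Of 7 such genes 6 were higher at 50% confluence with a median of 0.77 log2, 0.66 to 0.81 over 4 other scalings and floors, each with 6 of 7 higher, where 49.8% of the 4564 genes were higher. PGM1, the 1 gene of the 7 past 2-fold and the phosphoglucomutase that links glycogen to glycolysis, read 251 and 533 (1.09), the standard culture first. UGP2 read 837 and 1444 (0.79), GFPT1, the entry enzyme of hexosamine synthesis, 211 and 362 (0.78), and the glycogen synthase gene GYS1 1079 and 1844 (0.77). For GYS1 the 50% confluence value exceeded every standard line (597 to 1236). The glycogen phosphorylase genes PYGB (697 and 537, -0.38) and PYGL (1240 and 1470, 0.25) showed the smallest differences. SLC2A1 read 186 and 362 (0.96), above the highest standard line (311), and PFKL 699 and 1026 (0.55). Of 7 regulators of flux 5 were lower, with a median of -0.37 that became 0 with a floor of 200.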

How the data were processed

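The authors deposited linear intensities as whole numbers, with 12625 probe sets on each array. Probe summary and array scaling by the authors: not given in the sources used here. A floor had been set before deposit, at 100 in 9 arrays and 90 in 2. The 67 control probe sets were left out, values were floored at 100, log2 was taken, and the 7333 probe sets above the floor in at least 5 of 11 arrays were tested. A symbol came from the platform's probe annotation, and a gene's representative was its probe set of highest mean log2, which gave 5360 genes. All 10 member symbols were found in the RefSeq gene table (assembly NHGRI_mPanPan1-v2.0_pri), which served names and gene order alone.

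Lines were grouped by the labels' sex and numbered in accession order, so numbers pair nothing. Over the 10 standard lines limma 3.58.1 in R 4.3.3 (trended eBayes) fitted sex and age jointly, with their interaction added separately, with Benjamini-Hochberg adjustment over all tested probe sets, two-sided, at a threshold of 0.05. Correlations used two-sided permutation tests with 100000 resamples. P-values rest on the spread between lines, each of another animal. The number of arrays limits the precision. The fits were checked on simulated data.

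The members and lists were chosen with earlier results of these data known. Named by rule were the members, the 3 largest and smallest estimates of a described list, and the 10 most and 5 least like genes. Alternatives were quantile normalization, median centring, a floor of 200, a pseudocount of 50, other filters, variance models and age codings, and leaving out each line.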

Additional observations from a re-analysis of the deposited data

Results flagged for a closer look

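Each member probe set was examined in the 5 female and the 5 male lines, 22 groups of values in all. A line counted as standing apart from the other 4 when its gap was over 0.71 of the group's range in log2 intensity (Dixon's criterion). There were 2 that stood apart, where that criterion marks about 1 in 20 groups by chance. ALDOA in male line 4 read 3569, with the next male line at 6064, and the log2 gap was 0.802 of the log2 range of the male lines. PGAM1 in female line 1 read 14337, with the next female line at 20365, and the log2 gap was 0.800 of the log2 range of the female lines. The ribosomal RNA signals and 3' to 5' ratios of male line 4 are given above, as is the small share of probe sets above the floor in female line 1. Their part was not tested.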

How the results depend on the processing

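The count of member probe sets called for sex, age or the difference in age slope was 0 in all 57 refits with other scalings, floors, filters, variance models and codings or with a line left out (lowest adjusted p 0.561, limma, for the slope difference without male line 5). The median SD of the members was 0.26 to 0.30 over its alternatives, and no neighbouring pair passed in any. Among the uncalled sex and age estimates, another scaling or floor turned the sign of the LDHA age slope under quantile normalization (-0.023), of the ALDOA age slope with median centring (0.0090) and of the PFKP sex estimate with a floor of 200 (-0.078). Over all alternatives, leaving out lines included, 6 to 8 of the 9 sex estimates and 4 to 7 of the age slopes were positive. The cause was not tested. The correlation of GPI and PFKP, -0.169 as deposited, was 0.218 under quantile normalization and -0.531 to 0.027 with 1 line left out, above 0 without female line 1. That of GAPDH and PGK1, 0.268 over 10 lines, was -0.213 to 0.403 with 1 line left out, below 0 without female line 1, and 0.425 under quantile normalization. The PGK1 difference between the cultures turned to -0.096 under quantile normalization. Signal near the floor limits PFKP and the second GAPDH probe set, and 1 culture per line leaves technical spread unmeasured.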

Other observations

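Genes that share regulators with glycolysis, or take over its product, did not pass for sex or age (limma). The count was 0 of 13 tested citrate cycle genes, 0 of 18 hypoxia-inducible factor targets and 0 of 7 transcription factor genes. Of all tested probe sets 0.0273% passed for sex and 0% for age, so these counts do not set the genes apart. Of 18 hypoxia-inducible factor targets outside glycolysis, all tested, 16 were above the floor in all 11 cultures. Adrenomedullin (ADM) ran from 1863 in female line 3 to 8888 in female line 1, the oxygen-regulated gene NDRG1 from 3109 in female line 1 to 7175 in female line 3, and HMOX1, a heme oxygenase, from 623 to 3377. Female line 1, lowest for most of the enzymes, was thus the highest line for ADM and the lowest for NDRG1. HIF1A, the oxygen-labile subunit gene, read 365 to 885 and MYC 674 to 1191 over the standard lines.

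In the culture of male line 1 at 50% confluence HIF1A read 359, against 589 in the standard culture and below all 10 standard lines, while its partner gene ARNT read 424 against 164 (1.37 log2). Among the targets ADM (-0.99), TFRC (-0.92) and VEGFA (-0.66) were lower, and P4HA2 (1.13), BNIP3L (1.05) and BHLHE40 (0.52) higher, and the median of 17 was 0.08, which turned to -0.02 under quantile normalization. Citrate cycle genes had a median of 0.04 with 8 of 13 higher. DLST, of the oxoglutarate dehydrogenase complex, read 261 against 755 and IDH2, a mitochondrial isocitrate dehydrogenase, 881 against 399. There was 1 culture per state, so these differences have no replicate check.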
